A study of Mus musculus with 8 samples.

Results

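The genes described here are 10 genes whose transcripts mark endothelial cells, measured in mouse embryonic fibroblast cultures: Pecam1, Cdh5, Kdr, Flt1, Tek, Tie1, Emcn, Esam, Egfl7 and Eng. They were chosen by name, as a sign of endothelial cells in the cultures, and every probe set that the array annotation gives to 1 of them was kept. The 10 genes, of 18193 named on the array, gave 18 of the 45037 probe sets other than controls, with 4 probe sets each for Flt1 and Egfl7, 2 each for Cdh5 and Eng, and 1 for each other gene. The fibroblasts came from C57BL6/J embryos at stage E14.5 and were either wild type (Hif-p4h-1+/+) or knockout (Hif-p4h-1-/-) for Hif-p4h-1, the gene Egln2, which encodes a prolyl hydroxylase that marks the hypoxia-inducible factor HIF for breakdown. Cells of each genotype were sampled in normoxia and in hypoxia, which gave 4 groups of 2 arrays, 8 arrays in all, and the labels place 1 array of each group in a second set. The labels give neither the oxygen level, the time in hypoxia, the passage number nor the number of embryos behind an array, and they do not state whether arrays of 1 group stem from separate embryos or cultures.

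Endothelial cells line blood and lymph vessels. They hold together through junction proteins such as VE-cadherin (Cdh5), PECAM-1 (Pecam1) and ESAM (Esam), and they carry receptors for growth factors that neighbouring cells release. VEGF-A signals through VEGFR2 (Kdr), while VEGFR1 (Flt1) binds the same ligand tightly and, also as a soluble form, limits how much of it reaches VEGFR2. Angiopoietins act through Tie2 (Tek), with Tie1 as its partner, and endoglin (Eng) is a co-receptor for TGF-beta and BMP ligands. Several of these genes are also used outside the endothelium: Flt1 by monocytes and macrophages, and Eng by mesenchymal stromal cells. In fibroblast cultures the set therefore holds both genes that few other cells use, such as Cdh5 and Tie1, and genes that are less exclusive.

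The promoters of 3 genes are shown because these genes carried the differences described below: Flt1, which differed in the same direction between genotypes in every pair of arrays, and Kdr and Eng, which differed in opposite directions between the sets. Each runs from 250 bases before to 50 bases after an annotated start, 5′ to 3′ on the gene's strand, on GRCm38.p6. For Flt1 and Kdr this is not the outermost start. Their RefSeq genes reach further upstream, to chr5:147726438 and chr5:75979072, so these windows lie inside the genes. Capitals mark the letters ACGTG and GCGTG (the cores of HIF binding sites), TGACGTCA (a cyclic AMP response element) and AGGAAG (a core of ETS factor sites), searched on both strands, so that the other strand's match appears as its reverse complement. No other motif was searched, and a match is only a match of letters. The Flt1 window lies at chr5:147725962-147726261 on the minus strand, the Kdr window at chr5:75978406-75978705 on the minus strand, and the Eng window at chr2:32646345-32646644 on the plus strand.
Flt1: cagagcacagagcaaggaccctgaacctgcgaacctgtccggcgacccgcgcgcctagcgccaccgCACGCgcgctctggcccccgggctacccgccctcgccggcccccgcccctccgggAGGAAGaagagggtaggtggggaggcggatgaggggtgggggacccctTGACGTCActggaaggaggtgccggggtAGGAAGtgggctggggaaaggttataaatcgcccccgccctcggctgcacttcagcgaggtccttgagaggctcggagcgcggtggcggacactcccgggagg
Kdr: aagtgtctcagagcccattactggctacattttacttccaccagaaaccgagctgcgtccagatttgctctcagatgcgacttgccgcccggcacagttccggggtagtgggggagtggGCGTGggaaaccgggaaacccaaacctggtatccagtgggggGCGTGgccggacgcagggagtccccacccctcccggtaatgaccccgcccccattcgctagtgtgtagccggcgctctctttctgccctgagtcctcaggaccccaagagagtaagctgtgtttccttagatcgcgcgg
Eng: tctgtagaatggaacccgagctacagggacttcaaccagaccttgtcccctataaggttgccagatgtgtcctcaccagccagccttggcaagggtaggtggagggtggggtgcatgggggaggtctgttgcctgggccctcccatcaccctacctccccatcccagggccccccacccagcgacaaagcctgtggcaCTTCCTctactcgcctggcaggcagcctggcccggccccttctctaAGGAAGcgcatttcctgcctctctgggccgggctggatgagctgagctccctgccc
The Flt1 window held 1 GCGTG, on the other strand at position -184 from the start, 1 TGACGTCA at -81 and 2 AGGAAG at -129 and -53. The Kdr window held 2 GCGTG, at -131 and -89, and none of the other letters. The Eng window held 2 AGGAAG, at -52 on the other strand and at -6. ACGTG was found in none of the 3 windows. Of all 32851 promoter windows of this length, 32.4% held GCGTG, 19.6% ACGTG, 35.4% AGGAAG and 1.79% TGACGTCA. Of the 10 genes, 7 had a promoter in the sequence table, and Pecam1, Cdh5 and Esam had none.

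Values are log2 expression values after RMA, with an array median between 5.01 and 5.12. Probes differ in how brightly they report a transcript, so levels are compared between arrays for 1 probe set and not between genes. The knockout label was checked on Egln2 (1416533_at), which in normoxia read 8.84 and 9.07 in wild-type against 8.0 and 8.34 in knockout cells, and 8.95 and 9.13 against 8.66 and 8.85 in hypoxia. It was lower in the knockout in all 4 pairs, by 0.54 ± 0.066 on the log2 scale over both oxygen conditions (SE, limma, adjusted p = 0.0531). The position of this probe set relative to the deleted part is not stated in the labels. Bnip3, a HIF target, rose with hypoxia, by 3.94 in wild-type and 3.05 in knockout cells. Fibroblast genes such as Col1a2, at 14.19 to 14.56, and Thy1, at 10.81 to 11.92, were high on all arrays. RNA ends differed between the arrays: the 3′ value of Actb exceeded its 5′ value by 0.53 to 0.73 on first-set arrays and by 0.31 to 0.47 on second-set arrays, and the excess was larger in hypoxia than in normoxia within each set. Their part in the results below was not tested.

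Pecam1, Cdh5, Tie1 and Emcn gave values between 2.72 and 4.30 on the 8 arrays, and Esam between 4.88 and 5.42. For reference, the 25th percentile of probe set means was 3.6, and 15 of the 18 probe sets had a mean at or above it. That line is no detection limit, since 9 of 23 probe sets for genes of other specialised tissues (such as insulin, milk proteins and sperm protamines) were also at or above it. The highest mean among those 23 was 6.48, above the means of Kdr, Tek and Esam. It was also above those of Flt1 1419300_at (6.23) and 1454037_a_at and of Egfl7 1435823_x_at and 1421335_a_at. A value above the line therefore does not by itself show a transcript. Pecam1 (1421287_a_at) read 3.46 and 3.72 in wild-type normoxia, 3.42 and 3.73 in knockout normoxia, 3.52 and 3.51 in wild-type hypoxia, and 3.57 and 3.59 in knockout hypoxia, the first and second set in that order, as in all such lists below. The genotypes and the oxygen conditions overlapped, and every array lay between 3.42 and 3.73.

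Cdh5 (1433956_at), which encodes the adhesion molecule of endothelial adherens junctions, read 3.61 and 3.69 in wild-type normoxia, 3.76 and 3.73 in knockout normoxia, 3.85 and 3.78 in wild-type hypoxia, and 3.72 and 3.73 in knockout hypoxia. Its other probe set, 1422047_at, lay between 2.72 and 3.56, with the lowest value in knockout normoxia of the first set. In both probe sets of Cdh5 the genotypes overlapped. Tie1 (1416238_at), the receptor that partners Tie2, read 3.33 and 3.77, 3.31 and 3.56, 3.47 and 3.72, and 3.7 and 3.67 in the same order of groups. Emcn (1425582_a_at), which encodes the sialomucin endomucin of capillary and venous endothelium, scattered more: 3.95 and 3.22, 3.48 and 4.12, 4.30 and 3.65, and 3.45 and 3.64. Its arrays of the same group differed by up to 0.73, and both the genotypes and the oxygen conditions overlapped. Esam (1460356_at), a tight junction adhesion molecule also made by platelets, read 4.99 and 4.99, 4.88 and 5.05, 4.95 and 5.42, and 5.17 and 5.29.

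For all 5 of these genes the fit gave no call in any comparison, and the intervals below are those of the measured difference. For Pecam1, Cdh5, Tie1 and Emcn, whose values lie near the 25th percentile, they set no bound on a change of the transcript. Over both oxygen conditions the knockout differed from wild type by 0.03 for Pecam1 (95% interval -0.21 to 0.26), by 0.00 for Cdh5 1433956_at (-0.21 to 0.22), by -0.01 for Tie1 (-0.26 to 0.23) and by 0.01 for Esam (-0.26 to 0.28), all on the log2 scale. Emcn, with its wider scatter, had an interval from -0.61 to 0.39. The other Cdh5 probe set, 1422047_at, differed by -0.22 (-0.52 to 0.08). In normoxia alone it differed by -0.46 (-0.88 to -0.04, limma, adjusted p = 0.97), at -0.84 within the first set and -0.08 within the second. Over both genotypes the change with hypoxia was -0.04 for Pecam1 (-0.27 to 0.20), 0.07 for Cdh5 1433956_at (-0.14 to 0.29), 0.15 for Tie1 (-0.10 to 0.39) and 0.23 for Esam (-0.04 to 0.50). In cultures of many cells, a smaller number of endothelial cells and less RNA per cell cannot be told apart, here or in the results below.

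**Figure D1:**
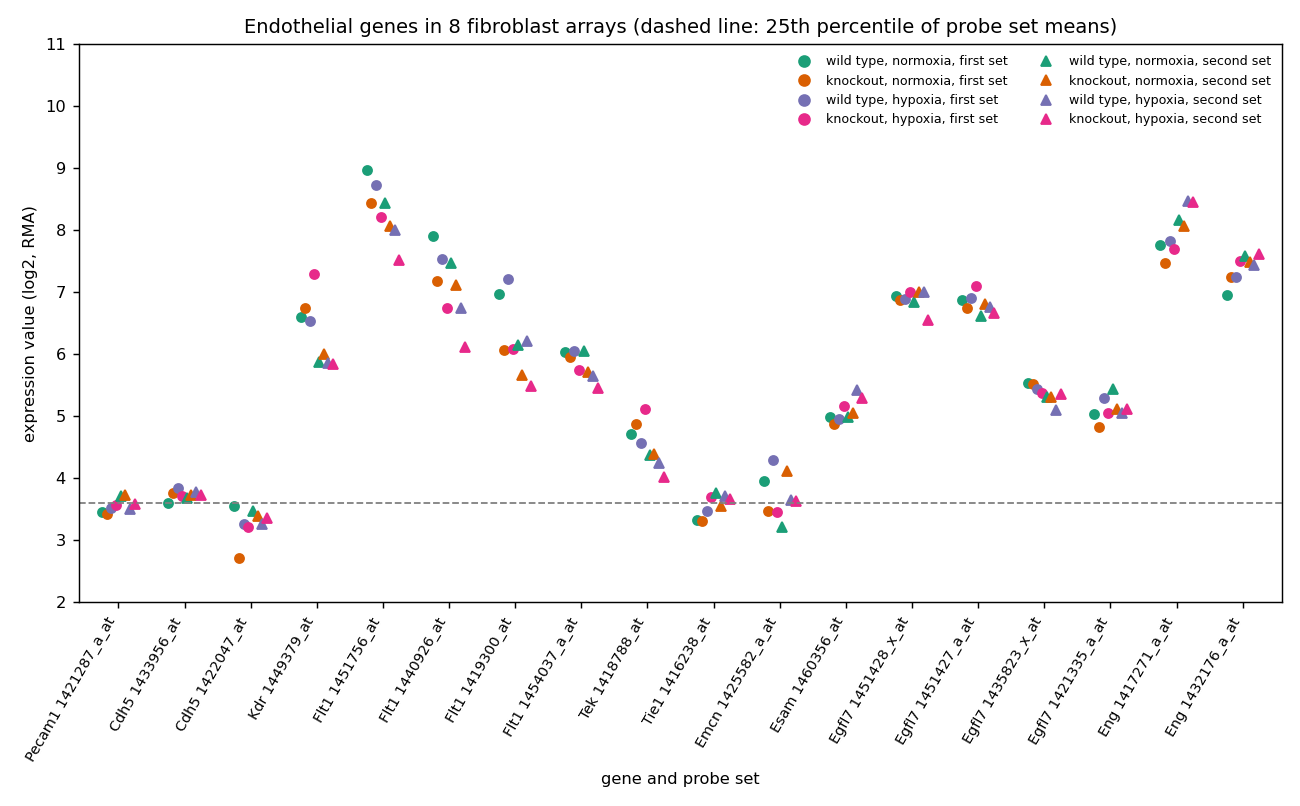
Expression value (log2, RMA) of each of the 18 probe sets of the 10 endothelial genes on the 8 arrays, with colours for the 4 groups, circles for the first set and triangles for the second. The dashed line is the 25th percentile of probe set means; Pecam1, Cdh5, Tie1 and Emcn lie near it, and the Flt1 and Eng probe sets and Kdr lie above it on every array.

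Kdr (1449379_at), the main signalling receptor for VEGF-A, read 6.60 and 5.88 in wild-type normoxia, 6.75 and 6.0 in knockout normoxia, 6.54 and 5.86 in wild-type hypoxia, and 7.29 and 5.84 in knockout hypoxia. All 4 arrays of the first set lay above all 4 of the second, and the highest value was that of knockout hypoxia in the first set. Tek (1418788_at), the angiopoietin receptor Tie2, read 4.72 and 4.37, 4.87 and 4.40, 4.57 and 4.24, and 5.12 and 4.02 in the same order. It too separated the sets, with its highest and its lowest value both in knockout hypoxia.

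Flt1, the receptor that holds back VEGF-A, was read by 4 probe sets. The first, 1451756_at, gave 8.97 and 8.43 in wild-type normoxia, 8.44 and 8.07 in knockout normoxia, 8.72 and 8.0 in wild-type hypoxia, and 8.21 and 7.52 in knockout hypoxia. The second, 1440926_at, gave 7.90 and 7.47, 7.18 and 7.11, 7.54 and 6.74, and 6.75 and 6.11. The third, 1419300_at, gave 6.97 and 6.15, 6.07 and 5.67, 7.21 and 6.21, and 6.09 and 5.49. In this probe set all 4 knockout arrays lay below all 4 wild-type arrays, the closest values being 6.09 in knockout and 6.15 in wild type. The last, 1454037_a_at, gave 6.04 and 6.06, 5.96 and 5.72, 6.05 and 5.65, and 5.75 and 5.45, with genotypes that overlapped.

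Eng, the TGF-beta and BMP co-receptor, read 7.76 and 8.17 in wild-type normoxia, 7.47 and 8.07 in knockout normoxia, 7.82 and 8.47 in wild-type hypoxia, and 7.70 and 8.45 in knockout hypoxia by probe set 1417271_a_at. Here all 4 arrays of the second set lay above all 4 of the first. Its other probe set, 1432176_a_at, read 6.95 to 7.51 on first-set arrays and 7.44 to 7.61 on second-set arrays, so that the sets overlapped. Egfl7, which encodes a protein that endothelial cells secrete into the matrix, was read by 4 probe sets that spanned 6.55 to 7.0, 6.61 to 7.10, 5.10 to 5.54 and 4.82 to 5.44 over the 8 arrays (1451428_x_at, 1451427_a_at, 1435823_x_at and 1421335_a_at). An ending in _x_at means that some probes can also match other transcripts. In none of the 4 Egfl7 probe sets did the genotypes or the oxygen conditions separate, and in 1435823_x_at every array of the second set lay below every array of the first.

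Between the genotypes no member passed the test, and Flt1 was the member with the most regular difference. It was lower in the knockout in 16 of 16 pairs of arrays matched for oxygen and set, counted over its 4 probe sets, which share the gene and the arrays and are not independent of each other. Over both oxygen conditions the difference was -0.81 ± 0.12 for 1419300_at (SE, limma, 95% interval -1.08 to -0.53, 1.75-fold lower), -0.62 ± 0.12 for 1440926_at (-0.91 to -0.34), -0.47 ± 0.082 for 1451756_at (-0.66 to -0.28) and -0.23 ± 0.11 for 1454037_a_at (-0.48 to 0.02). None passed the threshold of 0.05 after Benjamini-Hochberg adjustment over all 45037 probe sets: limma's adjusted p was 0.118, 0.293, 0.209 and 0.806 in that order. The largest difference among the other genes was that of Kdr, 0.25 ± 0.14 (adjusted p = 0.842), which was 0.45 within the first set and 0.05 within the other.

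In this comparison limma called 0 of the 18 probe sets, and 0.04% of all probe sets (18 in number). At an unadjusted p under 0.05 it gave 3 of the 18, all of Flt1, and 6.45% of all probe sets. The median difference was -0.04 over the 18 probe sets and 0.00 over all. The 1 member probe set whose genotypes did not overlap was Flt1 1419300_at, lower in the knockout, as were 0.759% of all probe sets.

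Taken by oxygen condition, Flt1 1419300_at differed between knockout and wild type by -0.69 ± 0.17 in normoxia (-0.90 within the first set, -0.48 within the second) and by -0.92 ± 0.17 in hypoxia (-1.12 and -0.72). The probe set 1440926_at differed by -0.54 in normoxia and -0.71 in hypoxia, 1451756_at by -0.45 and -0.50, and 1454037_a_at by -0.21 and -0.25. Limma called 0 of the 18 probe sets in normoxia, where it called 0.00666% of all, and 0 in hypoxia, where it called 0% of all. At an unadjusted p under 0.05 the counts were 4 and 3 of the 18, beside 4.63% of all probe sets in each condition. All were of Flt1 except Cdh5 1422047_at in normoxia. The smallest adjusted p was 0.891 in normoxia and 0.86 in hypoxia. The interaction of genotype and oxygen, tested as the difference between the 2 hypoxia changes, also had 0 of the 18 called against 0% of all, 0 at an unadjusted p under 0.05, and an adjusted p of 0.998 throughout.

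**Figure D2:**
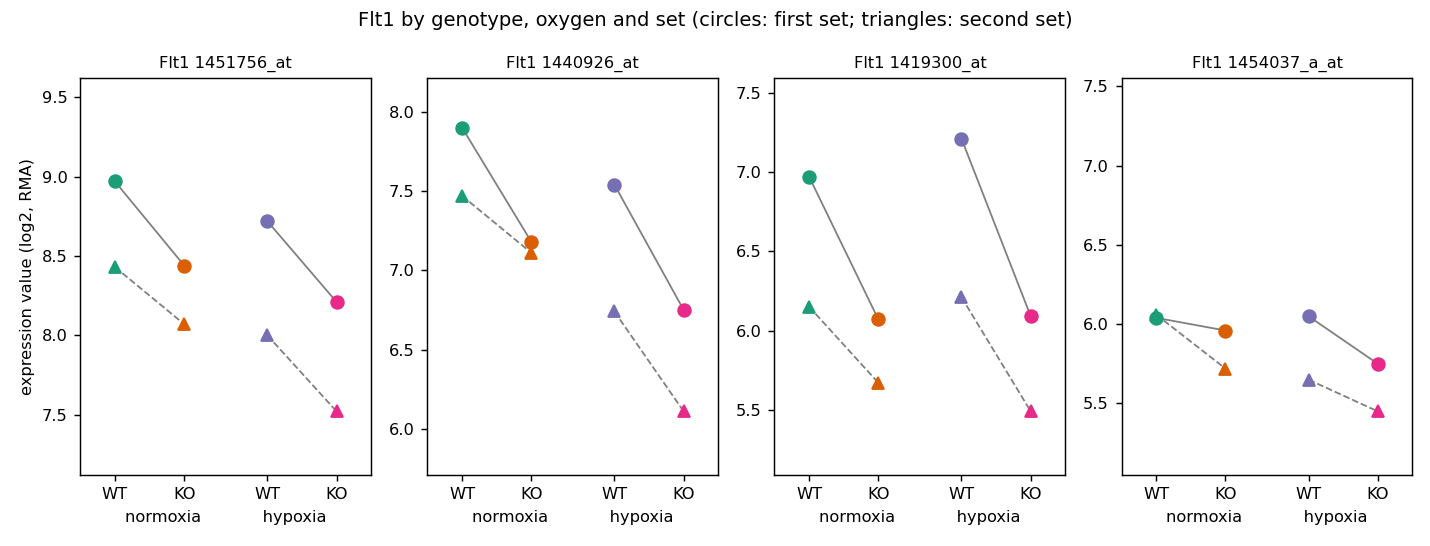
Expression value (log2, RMA) of the 4 Flt1 probe sets, one panel each, by genotype (WT wild type, KO knockout) within normoxia and hypoxia; circles and solid lines are the first set, triangles and dashed lines the second. All 16 lines run downward from wild type to knockout, and in 1419300_at the 4 knockout arrays, at 5.49 to 6.09, lie below the 4 wild-type arrays, at 6.15 to 7.21.

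Macrophage and leukocyte genes also read lower in the knockout, as a list. In a list of 18 macrophage and leukocyte genes with 31 probe sets, 29 probe sets were lower in the knockout over both oxygen conditions. Of the 31, 4 passed the test and 27 did not, beside 0.04% of all probe sets called. The list's median difference was -0.83 against 0.00 for all probe sets. The mean over the list lay between 4.94 and 5.25 on the knockout arrays and between 5.39 and 6.71 on the wild-type arrays. Those that fell were C1qb, a complement subunit made by macrophages (-2.06 and -1.81 by 2 of its 3 probe sets, adjusted p = 0.0201 and 0.022), Csf1r, the receptor for macrophage growth factor (-1.36 by 1 of 3, 0.0299), and the lysozyme gene Lyz2 (-1.19, 0.00244). All 4 calls were lost with the set as a random block, a model that estimates the correlation within a set (adjusted p = 0.652, 0.855, 0.998 and 0.99 in that order), and with no block. Under each of these models limma called 0 of all 45037 probe sets. With 1 array left out, the 2 C1qb calls were kept in 3 and 2 of 8 fits, that of Csf1r in 2 and that of Lyz2 in 7. Without wild-type normoxia of the first set all 4 were lost (adjusted p = 0.326 for C1qb and Csf1r, 0.0519 for Lyz2). Of the list's other defining markers, Ptprc, the pan-leukocyte protein CD45, differed by -1.63 (adjusted p = 0.0814), and read 3.53 to 4.50 in knockout against 4.52 to 6.82 in wild type.

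Of 9 platelet and megakaryocyte probe sets, 1 fell in the knockout and 8 did not pass, beside 0.04% of all probe sets called. It was that of Pf4, a chemokine stored in platelets (-1.47, adjusted p = 0.00257, but adjusted p = 0.914 with the random block). The Pf4 call was also lost without either array of wild-type normoxia (0.0519 and 0.0662, first and second set). The median of this list was -0.09, and between the sets 4 of its probe sets were called higher in the second and 1, that of Pf4, lower. The remaining defining markers of the macrophage list, Adgre1 and Cd68, lay between 4.41 and 6.81 and between 5.23 and 7.33 over the 8 arrays (RMA values have no true zero). The same list was lower in the second set in 29 of 31 probe sets, 15 of which passed, with a median of -0.67. Between the sets 13.9% of all probe sets were called lower in the second and 13.4% higher. On average, Flt1 and the macrophage list were both lower in the knockout and in the second set. Whether single arrays went together depended on the Flt1 probe set. The list's mean was 5.17 in knockout normoxia of the first set and 5.39 in wild-type hypoxia of the second. On these arrays Flt1 1419300_at read 6.07 and 6.21, higher on the second like the list. The other Flt1 probe sets read 7.18 and 6.74 (1440926_at), 8.44 and 8.0 (1451756_at) and 5.96 and 5.65 (1454037_a_at). The part of such cells in the Flt1 values was not tested. The fibroblast gene Pdgfra fell in the knockout by 1 of its 3 probe sets (-0.72, adjusted p = 0.0221). The other 27 of 28 fibroblast probe sets did not pass, beside 0.04% of all probe sets called. The Pdgfra call was lost with the random block (adjusted p = 0.998) and in each of the 8 fits without 1 array (0.0578 to 0.326).

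**Figure D3:**
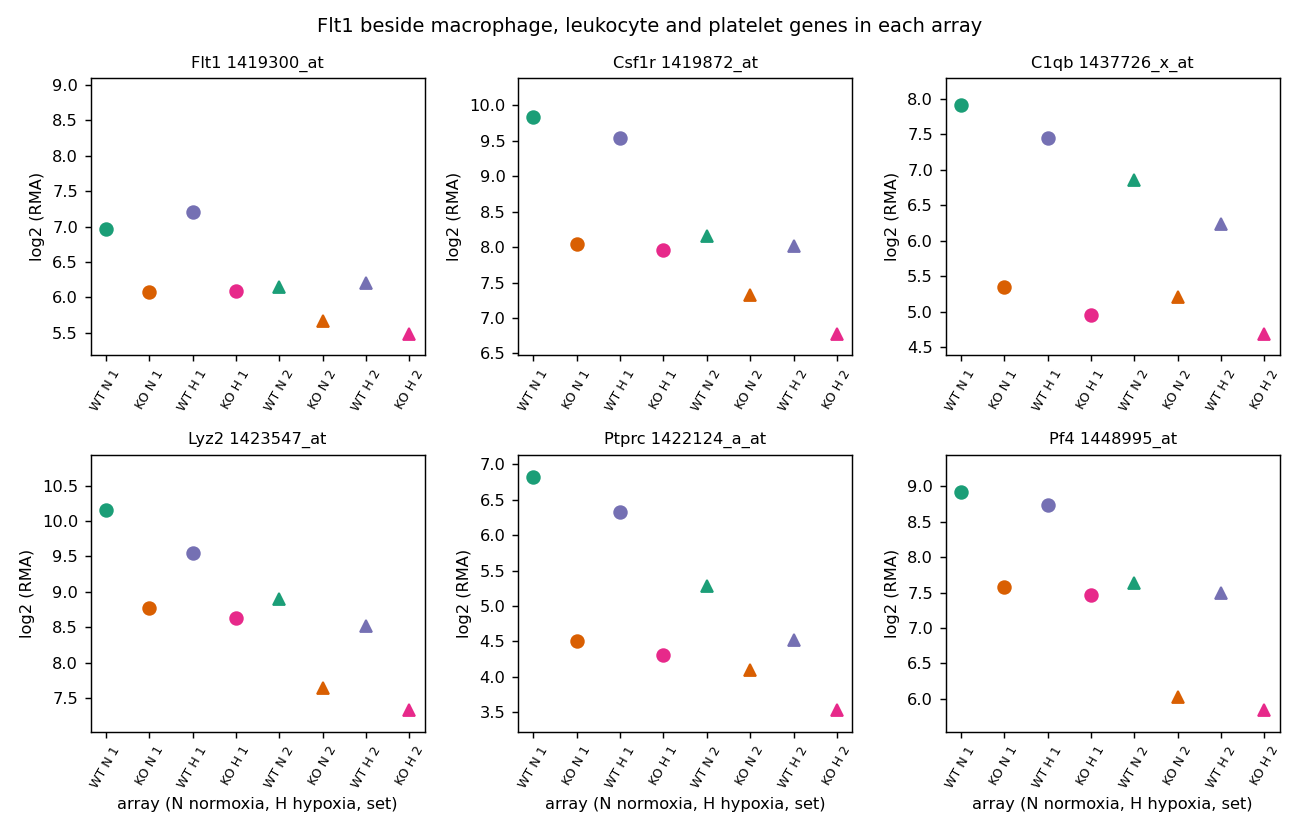
Expression value (log2, RMA) of Flt1 1419300_at and of Csf1r, C1qb, Lyz2, Ptprc and Pf4 on each of the 8 arrays (WT wild type, KO knockout, N normoxia, H hypoxia, 1 and 2 the sets; circles are the first set, triangles the second). In each panel and each set both knockout arrays lie below both wild-type arrays. Flt1 is shown by the member probe set with the largest decrease in the knockout. Csf1r, C1qb, Lyz2 and Pf4 are shown by probe sets called lower in the knockout. The separation in these panels follows in part from that choice. Not every probe set of the macrophage list separated in this way. Adgre1, not shown, read 4.41 and 4.80 in wild type against 4.41 and 4.58 in knockout in the second set (normoxia, then hypoxia).

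With hypoxia, 2 of the 4 Flt1 probe sets fell and no other member passed the test. Over both genotypes, 1440926_at fell by 0.63 ± 0.12 on the log2 scale (adjusted p = 0.0104) and 1451756_at by 0.36 ± 0.082 (adjusted p = 0.0183). Both were lower in hypoxia in all 4 pairs of arrays, but the change differed in size between the sets, at -0.40 and -0.86 for 1440926_at and -0.24 and -0.49 for 1451756_at (first, then second set). The other 2 Flt1 probe sets did not pass. Of these, 1454037_a_at was lower in 3 of 4 pairs, by 0.22 ± 0.11 (95% interval of the change -0.47 to 0.03, adjusted p = 0.239). The other, 1419300_at, differed by 0.04 ± 0.12 (95% interval -0.24 to 0.31, adjusted p = 0.898). The macrophage and leukocyte list was lower in hypoxia in 22 of 31 probe sets over both genotypes, with a median of -0.18 (-0.30 in wild type and -0.04 in knockout alone). Of the 31, 1 was called, Lyz2 (-0.36, adjusted p = 0.0117, but adjusted p = 0.426 with the random block), beside 8.31% of all probe sets called lower. The part of this list in the Flt1 change was not tested. The Flt1 probe sets thus gave unlike estimates for hypoxia, and the difference between them was not tested. The annotation used does not tell which Flt1 transcripts each one reads.

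The 2 calls were both lower, 11.1% of the 18 probe sets, beside 8.31% of all probe sets called lower and 15.8% called in either direction, so the members' share is near that of all probe sets. In no member did the 4 hypoxic arrays separate from the 4 normoxic arrays, while 5.57% of all probe sets separated upward and 5.59% downward. Both calls were lost with the set as a random block (adjusted p = 0.0591 and 0.181) and when the set was left out of the model (0.353 and 0.624), while the changes themselves stayed at -0.63 and -0.36. They were also lost without wild-type normoxia of the second set (0.0552 and 0.0759) or knockout hypoxia of the second set (0.0559 and 0.0849). The call of 1451756_at alone was lost without wild-type normoxia of the first set (0.0658), knockout normoxia of the second (0.0744) or wild-type hypoxia of the second (0.0576).

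Within wild type alone limma called 0 of the 18 probe sets, against 7.29% of all, and within knockout alone 0, against 4.67% of all. At an unadjusted p under 0.05 the counts were 2 and 3 of the 18, beside 21.2% and 19.2% of all probe sets. In knockout cells Flt1 1440926_at came closest to the threshold (-0.72, adjusted p = 0.0582), and it was called when either wild-type hypoxia array was left out of the fit (adjusted p = 0.0433 without that of the first set and 0.0416 without that of the second). Eng 1417271_a_at was higher in hypoxia in all 4 pairs, by 0.24 ± 0.081 over both genotypes, without passing the test (adjusted p = 0.0827). Kdr differed by 0.08 (95% interval -0.25 to 0.40) and Tek by -0.10 (-0.44 to 0.24), and in both the knockout arrays of the first set were higher in hypoxia, by 0.54 and 0.25, while the knockout arrays of the second set were lower, by 0.16 and 0.38.

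The genes for ligands of these receptors and for their partner receptors changed with hypoxia in part. Of 38 probe sets for 18 ligand and partner genes, 12 rose with hypoxia over both genotypes, 2 fell and 24 did not pass, with a median change of 0.15 against 0.00 for all probe sets, of which 7.49% were called higher. Vegfa, the ligand of Kdr and Flt1 and a HIF target, rose by 0.84 and 0.82 by 2 probe sets (adjusted p = 0.00152 and 0.000945). Vegfb, a ligand of Flt1 alone among these receptors, rose by 0.66 (0.00662). Of the neuropilins, which help VEGF bind its receptors, Nrp2 rose by 1.04 (1426528_at, 0.000547) and 0.67 (1456778_at, 0.000615) by 2 of 4 probe sets. Nrp1 rose by 0.46 (0.00339) by 1 of 4, while its 1457198_at was lower in hypoxia in all 4 pairs without passing the test (-0.78, 0.0839). Tgfb3, a ligand of the receptor complex that endoglin joins, fell by 0.71 (0.0016). With the set as a random block 7 of the 14 calls of this list were kept, and those of Vegfa 1420909_at (adjusted p = 0.123) and Tgfb3 (0.177) were lost. With no block none of the 14 passed. None of the 38 was called between the genotypes over both oxygen conditions.

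A list of 32 further endothelial genes with 56 probe sets had 7 probe sets of 5 genes that rose with hypoxia over both genotypes, none that fell and 49 that did not pass, with a median change of 0.07. Over all probe sets 7.49% were called higher with hypoxia and 8.31% lower. Cd34, a sialomucin of endothelial and blood progenitor cells that embryonic fibroblasts also carry, rose by 1.31 (adjusted p = 0.000901), from 6.45, 6.19, 5.01 and 4.82 in normoxia to 7.88, 7.41, 5.99 and 6.43 in hypoxia (wild type and knockout of the first set, then of the second). Ptprb, the phosphatase VE-PTP that acts on Tie2 and VE-cadherin, rose by 1.01 and 0.85 by 2 of 3 probe sets (0.000404 and 0.00339). Apln, the ligand of the apelin receptor, rose by 0.89 (0.00144), and the ETS factor gene Fli1 by 0.93 (0.00302) and 0.32 (0.0479). Of the defining markers of this list, Cldn5, the tight junction claudin, lay between 4.59 and 4.92, Vwf, the von Willebrand factor gene, between 3.16 and 4.17, and neither these nor Sox17 passed the test in any comparison. Erg, an ETS factor gene of endothelium and the list's remaining defining marker, was lower in the second set by 1 of its 2 probe sets (1440244_at, -0.48, adjusted p = 0.0229). With the set as a random block 6 of the 7 hypoxia calls of this list were kept, and with no block none. No probe set of this list was called between the genotypes.

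**Figure D4:**
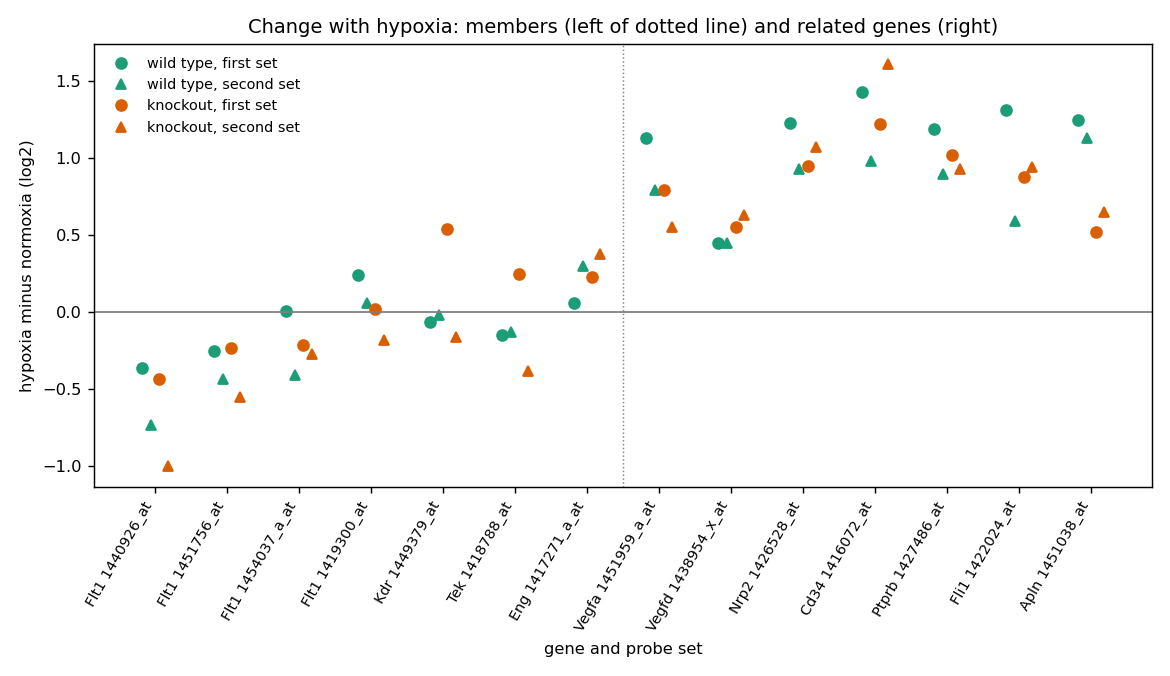
Difference between hypoxia and normoxia (log2) in each genotype and set for 7 member probe sets, left of the dotted line, and 7 probe sets of related genes, right of it; circles are the first set, triangles the second, and the horizontal line is 0. Flt1 1440926_at and 1451756_at lie below 0 in all 4 comparisons, Kdr and Tek scatter around 0, and the related genes lie above 0 in all 4. The related genes were picked from those called higher with hypoxia, so their side of 0 follows from that choice. Genes of the same lists that fell, such as Tgfb3, are not shown.

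Of 10 lymphatic endothelial probe sets, 2 rose with hypoxia over both genotypes, where 7.49% of all probe sets were called higher and 8.31% lower. They were Pdpn, the podoplanin gene that fibroblasts also express (0.61, adjusted p = 0.000648), and Flt4, the receptor for VEGF-C, by 1 of its 2 probe sets (0.55, 0.00765). Prox1, the factor that sets lymphatic identity, lay between 2.84 and 3.25 and did not pass in any comparison. Of 20 probe sets of mural cells, the pericytes and smooth muscle cells around vessels, 2 rose, Cspg4 (0.36, 0.0167) and Pdgfrb (0.25, 0.0391), and Notch3 fell (-0.72, 0.00488). Each of these genes was called by only 1 of its 2 probe sets. Both Pdgfrb and Cspg4 are also expressed by fibroblasts. With the random block the Pdpn and Flt4 calls were kept (adjusted p = 0.00599 and 0.0284), and those of Cspg4 (0.058), Pdgfrb (0.56) and Notch3 (0.0656) were lost.

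Most calls among the members lay between the sets, which also gave the most calls over all probe sets. Averaged over the groups, Kdr was lower in the second set by 0.90 ± 0.14 on the log2 scale, or 1.87-fold (SE, limma, adjusted p = 0.00198), Tek by 0.56 ± 0.15 (0.0233), and Flt1 by 0.70 ± 0.12 (1419300_at, 0.00286), 0.58 ± 0.082 (1451756_at, 0.00114) and 0.48 ± 0.12 (1440926_at, 0.019). Eng was higher in the second set by 0.60 ± 0.081, or 1.52-fold (1417271_a_at, 0.000919), and its other probe set was higher by 0.29 without passing the test (0.0682). Pecam1 (0.14, 95% interval -0.09 to 0.38), Cdh5 1433956_at (0.00, -0.22 to 0.21) and Tie1 (0.23, -0.02 to 0.47) did not pass, nor did the remaining Flt1 probe set, 1454037_a_at (-0.23, adjusted p = 0.167).

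Limma called 6 of the 18 probe sets, 33.3%, between the sets, beside 27.2% of all probe sets, so the members' share is near that of all. Of the 6 calls, 5 were lower, beside 13.9% of all, and 1 was higher, beside 13.4% of all. The sets did not overlap in 4 member probe sets, 3 lower in the second set (Kdr, Tek and Egfl7 1435823_x_at) and 1 higher (Eng 1417271_a_at), beside 10.1% of all probe sets lower and 11.4% higher without overlap. The labels do not say what a set stands for, and whether its differences come from embryos, cultures or array handling cannot be told apart.

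The sets did not differ by the same amount in every group. Kdr was lower in the second set by 0.72 in wild-type normoxia, 0.75 in knockout normoxia, 0.68 in wild-type hypoxia and 1.45 in knockout hypoxia. Tek was lower by 0.35, 0.47, 0.33 and 1.10 in the same order. Both receptors thus had their largest gap in knockout hypoxia, where each value rests on 2 arrays and has no test of its own. The calls of Tek and of Flt1 1440926_at between the sets were each kept in 2 of the 8 fits that left out 1 array. Tek lost its call without either array of wild-type normoxia (adjusted p = 0.0541 and 0.0543), knockout normoxia (0.0505 and 0.0507) or knockout hypoxia (0.082 and 0.0839), first and second set in that order. Flt1 1440926_at lost it without either array of wild-type normoxia (0.0693 and 0.0688), wild-type hypoxia (0.0701 and 0.0677) or knockout hypoxia (0.0788 and 0.0779).

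**Figure D5:**
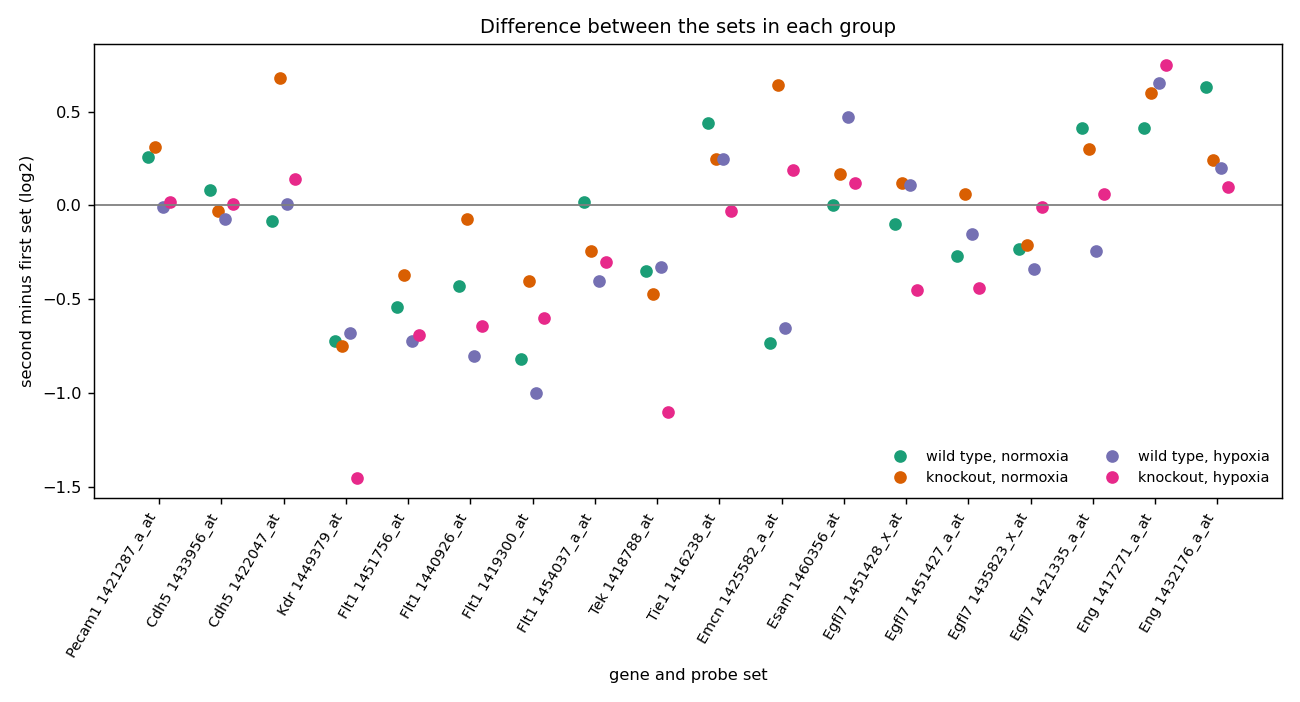
Second-set value minus first-set value (log2) for each of the 18 probe sets in each of the 4 groups, each point being 1 array minus 1 array; the horizontal line is 0. Kdr, Tek and Flt1 1451756_at lie below 0 in all 4 groups, Eng 1417271_a_at lies above 0 in all 4, and the lowest points of Kdr and Tek, at -1.45 and -1.10, are those of knockout hypoxia.

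The ligands of these receptors also differed between the sets. Of their 38 probe sets 10 were higher in the second set, 9 were lower and 19 did not pass. Over all probe sets 13.4% were called higher in the second set and 13.9% lower, which is the reference for the lists that follow too. Vegfa was higher by 1.34 (1420909_at, adjusted p = 7.85e-05), Pgf, another ligand of Flt1, by 1.24 (0.000301), and Tgfb3 by 1.36 (3.99e-05). Angpt1, the agonist of Tie2, was lower by 1.07 (0.000447), and Vegfd was lower by 1.11 (1438954_x_at, 7.5e-05). Of the 56 further endothelial probe sets 4 were higher in the second set and 7 lower, led by Cd34 (-1.42, 0.000227) and Esm1, a proteoglycan of endothelial tip cells (-1.0, 0.000802), while Gata2 was higher (0.63, 0.000971). Mural cell probe sets were called higher 8 times and lower 4 times of 20, led by Pdgfrb (1.09, 3.38e-05), Mcam (1.63, 7.02e-05) and the smooth muscle myosin gene Myh11 (1.93, 8.26e-05).

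The genes whose profile was most like those of the 2 junction genes were looked up over the 8 arrays, after each set's mean was subtracted, as a description. For Cdh5 (1433956_at) they were Pkp2, Med29 and Cdc14a, with Pearson r of 0.986, 0.969 and 0.966, the highest among 28146 probe sets compared. For Pecam1 they were Aamdc, Rpain and Ddx5, at 0.980, 0.972 and 0.968 among 28147. None of these 6 genes is in the lists of endothelial genes. The profiles of Cdh5 and Pecam1 that they were matched to span only 0.24 and 0.31 on the log2 scale between the lowest and the highest array.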

How the data were processed

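Total RNA from 8 fibroblast samples was labelled with biotin by the Affymetrix protocol, from 5 ug each per the labels' protocols, and hybridised to 1 single-colour array per sample. The deposited values are log2 expression values per probe set, made by the authors with RMA per the submitters' processing notes, with no version given. RMA corrects background, brings arrays to 1 distribution and summarises probes, which hides a change common to all transcripts. Neither joint normalisation of all arrays nor a genome build is stated in the labels or the file. The log2 scale was read from the values (2.09 to 14.71 over 45037 probe sets, without 64 controls), and nothing was normalised further.

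The platform annotation named the probe sets: 34945 had 1 gene symbol, 932 several (not used) and 9160 none listed. Symbols of 34741 were updated through Entrez identifiers with RefSeq's GRCm38.p6 table. In R 4.3.3, limma 3.58.1 fitted the mean of each group and the set as a replicate block to all 45037 probe sets, with no filter on low values and eBayes with a trend. This left 3 residual degrees of freedom, to which moderation added 5.41. Benjamini-Hochberg adjusted p under 0.05 is a call, errors are SE, and intervals are 95%. Every adjusted p of a probe set comes from limma. The code was tested on simulated data with known changes. The precision is limited by the number of arrays, and the p-values reflect only how far these arrays scatter, which may be technical.

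The labels give each group an array of the first and of the second set. Over all probe sets, the difference between the sets correlated between groups at r = 0.535 to 0.728 over the 6 pairs of groups, so the set numbers pair the arrays and the set was kept in the model. All probe sets of the 10 genes are named. From each other list are named, at most, the 4 genes of smallest adjusted p per comparison and the list's first 4 genes, and from all genes the 3 most like Cdh5 and Pecam1. The lists are further endothelial, lymphatic endothelial, ligand and partner, macrophage and leukocyte, platelet, erythroid, mural cell, fibroblast, epithelial and other specialised tissue genes. The members and the lists were chosen with earlier results of these data known. Alternatives were the model without the set or with it as a random block, a filter on low values, 1 probe set per gene, a second quantile normalisation, no trend, only the groups compared, and leaving out each array. The models without the set or with it as a random block, and the fits without 1 array, were also applied to the calls of the other lists, a step chosen after seeing the data.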

Additional observations from a re-analysis of the deposited data

Results flagged for a closer look

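Emcn (1425582_a_at) was higher in hypoxia in both wild-type pairs, by 0.35 and 0.43 in the sets, and lower in both knockout pairs, by 0.03 and 0.48. The difference between these changes, tested as the interaction, was -0.645 on the log2 scale and did not pass (limma, adjusted p = 0.998).

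Cdh5 (1433956_at) was higher in the knockout than in wild type in both normoxic pairs, by 0.15 and 0.04, and lower in both hypoxic pairs, by 0.13 and 0.05. The interaction was -0.185 (adjusted p = 0.998). For the other Cdh5 probe set, 1422047_at, it had the opposite sign, 0.485 (limma, adjusted p = 0.998). Groups of 2 arrays allowed no search for single outlying arrays.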

How the results depend on the processing

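Each count of member probe sets called, and each of 144 single log2 changes, was computed again under 7 other settings where they apply and with each of the 8 arrays left out. The count of calls was 0 under every setting run for the 3 genotype comparisons, for hypoxia in wild type and for the interaction. For hypoxia in knockout it was 0 under the other settings and 0 to 1 with 1 array left out. For hypoxia over both genotypes it was 2, but 0 with no replicate block (113 calls over all probe sets) and 0 with the set as a random replicate block (2773 calls over all, 7117 with the fixed block). It was 1 of the 8 members tested with 1 probe set per gene, where Flt1 has a single probe set, and 0 to 2 with 1 array left out. The count between the sets was 6, with 4 of 8 for 1 probe set per gene, and 4 to 5 with 1 array left out. Of the 1948 single values, 143 changed sign, each of them uncalled both times, 23 lost a call, 2 gained one and no called value changed sign. Flt1 1419300_at between genotypes over both oxygen conditions ranged from -0.91 to -0.70 with 1 array left out and was called in none of 13 settings. The model without the block and that with a random block gave 24 and 375 calls over all probe sets for hypoxia in wild type (3282 with the fixed block), and 14 and 148 in knockout (2104). The cause was not tested. Levels near the 25th percentile, as for Pecam1, Tie1, Cdh5 and Emcn, leave little signal over background from which a decrease could be seen.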

Other observations

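The other cell type lists gave these values. None of the 7 erythroid and 14 epithelial probe sets was called between the genotypes, where 0.04% of all were called over both oxygen conditions. Epcam fell with hypoxia over both genotypes by 1 of its 2 probe sets (-0.41, limma, adjusted p = 0.0331, but adjusted p = 0.0629 with the set as a random block). Cdh1, the epithelial cadherin, lay between 2.41 and 3.37 on the 8 arrays, and the erythroid enzyme gene Alas2 between 3.13 and 3.63. Of the 9 platelet probe sets 4 were higher in the second set, led by Ppbp (2.37, adjusted p = 0.00347), while Pf4 was lower (-1.42, 4.1e-05). Between the sets 13.4% of all probe sets were called higher in the second and 13.9% lower. Of the 23 probe sets for genes of other specialised tissues, limma called 0 in each of the 8 comparisons, and their mean lay between 3.55 and 3.68 on the 8 arrays.

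Of the fibroblast genes, 5 of 28 probe sets rose with hypoxia over both genotypes and 2 fell, beside 7.49% and 8.31% of all probe sets. With the set as a random block 5 of these 7 calls were kept. Prrx1, a factor of limb mesenchyme, was called higher by 3 of its 6 probe sets, led by 1425526_a_at (0.84, limma, adjusted p = 0.000141). Twist2 rose by 0.68 (0.00172), and Fn1 fell by 1 of its 2 probe sets (1437218_at, -1.32, 0.00212).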
